A study of Mus musculus with 6 samples.

Results

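Interleukin 1 (IL-1) receptor signalling was described by 10 genes in bone marrow (BM) erythroblasts sorted during recovery from haemolytic anaemia. They were the receptor Il1r1 and its partner Il1rap, the ligands Il1a and Il1b, the antagonist Il1rn, and Myd88, Irak1, Irak2, Irak4 and Traf6, which carry the signal inside the cell. All 10 were found, by 18 of the array's 55681 non-control probes, among 34761 named genes or transcripts. The set was chosen by the genotype contrast of these arrays, known from earlier results. The values of its genes in P38α-/- against P38α+/- erythroblasts are therefore a description, with no test, and nothing is supported by them. P38α is the kinase encoded by Mapk14.

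RNA of CD71highTer119+ BM erythroblasts from 3 P38α+/- and 3 P38α-/- mice was hybridised to 1 Agilent 1-colour array per mouse. The P38α+/- mice were Mx1-Cre/P38α fl/+ and the P38α-/- mice were Mx1-Cre/P38α fl/fl, on a C57Bl/6 background, both sexes, and were 6 to 8 weeks old at the PolyIC injections. Every mouse of both groups carried Mx1-Cre, received 3 injections of 300 µg PolyIC to induce it, rested for 6 weeks, and was made anaemic by 1 injection of 100 mg per kg phenylhydrazine (PHZ), with cells sorted on day 4. Mx1-Cre answers to interferon and also deletes in haematopoietic cells other than erythroblasts and in some cells outside the marrow lineages, and the comparison has no mouse without Cre, without PolyIC or with both P38α alleles intact.

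IL-1α and IL-1β bind IL1R1, which then recruits the accessory protein IL1RAP. The paired tails bind the adaptor MYD88, which assembles IRAK4 with IRAK1 or IRAK2, and these pass the signal to the ubiquitin ligase TRAF6 and on to NF-κB, JNK and P38. The antagonist IL1RN occupies the receptor without recruiting the accessory protein. In bone marrow, neutrophils, monocytes and macrophages are the known makers of IL-1β, while stromal, endothelial and stem or progenitor cells are known to carry the receptor.

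Levels are log2 processed intensities from which each array's own 75th percentile, over probes that all 6 arrays detected, was subtracted, and a change is P38α-/- minus P38α+/- on that scale. A level below 0 is thus a signal dimmer than that percentile, and levels are not comparable between probes of different genes. Detected means flagged by the scanner software as well above background. Probes that 1 genotype or both detected in all 3 mice were tested, which held for 18785 probes of 14158 genes. The median change of those genes was -0.14. The arrays differed in sensitivity, with 53.1% of probes well above background on P38α+/- replicate 1 and 28.9% to 38.2% on the other 5, and P38α-/- replicate 3 was alone on its slide and scan. The targeted gene did not read lower in P38α-/- cells. Its brighter probe gave 0.33, 0.58 and 0.61 in P38α+/- and 0.76, 1.19 and 1.20 in P38α-/- erythroblasts, and its other probe -3.79, -3.37 and -3.38 against -4.44, -2.86 and -3.20. Whether these probes lie in the deleted part of Mapk14 is not given in the sources used here, so they do not check the labels. The study itself reports, for P38α-/- mice after PolyIC, that the locus was excised and that sorted erythroblasts had lost the P38α protein. Erythroid genes were bright throughout, and their listed mean level was 4.87 to 5.17 in P38α+/- and 4.89 to 5.21 in P38α-/- arrays.

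What each array read for the receptor, its partner, the ligands and the antagonist was 1 stretch of transcript 60 bases long, and the first 30 bases of these probes are shown because the contrast of receptor and ligand rests on them. The Il1r1 probe (A_51_P271503) lies at chr1:40372667-40372726 on the plus strand of mm9, the Il1rap probe (A_52_P467232) at chr16:26701498-26701557 on the plus strand, the Il1a probe (A_52_P100926) at chr2:129125994-129126053 on the minus strand, the Il1b probe (A_51_P212782) at chr2:129190347-129190406 on the minus strand, and the Il1rn probe (A_55_P1962400) at chr2:24205094-24205153 on the plus strand. Exon and UTR annotation of mm9 was not used here. All are written 5′ to 3′ in the sense of the transcript, in lower case because no part is singled out.
Il1r1: tacttagatttcaccgtactttctgatggt
Il1rap: gatgttgtcaacgcctttgtttctaaatgt
Il1a: aatgccagttgagtaggataaaggtataag
Il1b: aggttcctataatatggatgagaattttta
Il1rn: aacacaccggaagagccccttatagtcacg
No run of 20 bases in any of the 18 member probes recurred in another probe of the array, on either strand. The search covered the array's probes only and not the genome, so repeats elsewhere were not looked for.

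Il1r1, the receptor that signals for both ligands, had 1 probe, well above background on all 6 arrays. Its level was -4.49, -4.30 and -4.52 in P38α+/- erythroblasts and -2.94, -3.32 and -3.36 in P38α-/- erythroblasts. Every P38α-/- array was above every P38α+/- array, and the gap between the groups was wider than the spread within either. The group means were -4.44 ± 0.12 and -3.21 ± 0.23 (SD, n = 3 each), a 2.35-fold higher mean in P38α-/- cells, or 1.23 ± 0.18 (SE from limma) on the log2 scale. Between mice of the same replicate number the difference was 1.55, 0.98 and 1.16. Before any scaling the processed intensity was 36 to 66.4 in P38α+/- and 97 to 157.9 in P38α-/- arrays, so the groups were in the same order without the scaling.

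Il1rap, whose product the receptor needs in order to signal, was dim. The brightest of its 3 probes read -6.92, -6.96 and -6.21 in P38α+/- and -7.42, -7.56 and -7.57 in P38α-/- arrays and was well above background on 1 P38α+/- array only. The other 2 probes, for other transcripts of the gene, were well above background on no array. No change was fitted for it, since at such signals the values have no dependable order.

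Il1b, the inducible ligand, moved the other way from Il1r1. Its probe was printed at 10 places on each array, and its level was -2.64, -2.17 and -3.16 in P38α+/- and -4.42, -4.46 and -5.82 in P38α-/- erythroblasts. All 3 P38α-/- arrays were below all 3 P38α+/- arrays, and P38α-/- replicate 3 was the lowest by more than 1 log2 unit. The means were -2.66 ± 0.50 and -4.90 ± 0.80 (SD, n = 3 each), a 4.73-fold lower mean in P38α-/- cells (change -2.24 ± 0.45, SE). Same-numbered mice differed by -1.79, -2.29 and -2.65. The 8 to 10 usable spots of an array scattered with an SD of 0.08 to 0.28, which covers printing error within an array only. Unscaled intensities were 130.4 to 290.9 in P38α+/- and 24.2 to 71.7 in P38α-/- arrays.

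Il1a, the ligand that many cells hold ready made, was well above background on P38α+/- replicate 1 alone, with a level of -4.33 there, against -8.57 and -8.07 in the other P38α+/- mice and -7.63 to -8.65 in the P38α-/- mice. The difference of group means, -1.26, became 0.066 without that array. Il1rn, the antagonist, was well above background on 2 P38α+/- arrays and on no P38α-/- array. It read -4.87, -6.06 and -8.45 in P38α+/- and -6.56, -6.72 and -7.59 in P38α-/- erythroblasts. The groups overlapped, and against the detection limit of the P38α-/- arrays the P38α+/- mean was at least 1.01-fold higher. For both genes the spread among P38α+/- mice exceeded any difference between the genotypes.

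**Figure D1:**
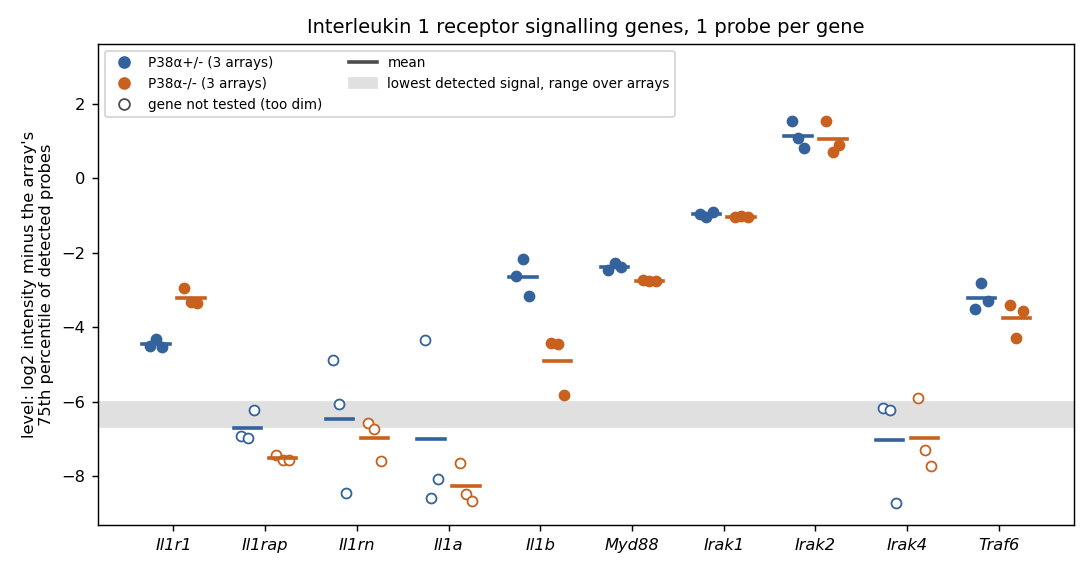
Level (log2 intensity minus the array's 75th percentile of detected probes, y axis) of the 10 genes, 1 probe each, in 3 P38α+/- (blue) and 3 P38α-/- (orange) arrays, with lines at the means, open points for genes too dim to be tested and a grey band for the lowest detected signal of the arrays (-6.67 to -6.02). Il1r1 is higher and Il1b lower in all 3 P38α-/- arrays, Irak1 and Irak2 overlap, and 4 genes sit at or near the detection limit.

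The receptor and the ligand were set side by side within each array, where no scaling of a whole array can move their difference. Centred on its P38α+/- mean, Il1r1 minus Il1b was -0.08, -0.35 and 0.43 in P38α+/- and 3.26, 2.92 and 4.24 in P38α-/- erythroblasts. The P38α-/- mean was 3.47 ± 0.69 with an SD of 0.39 among the P38α+/- arrays, and the lowest P38α-/- value lay 2.49 above the highest P38α+/- value. This contrast was named in the choice of the set and is given as its size only.

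**Figure D2:**
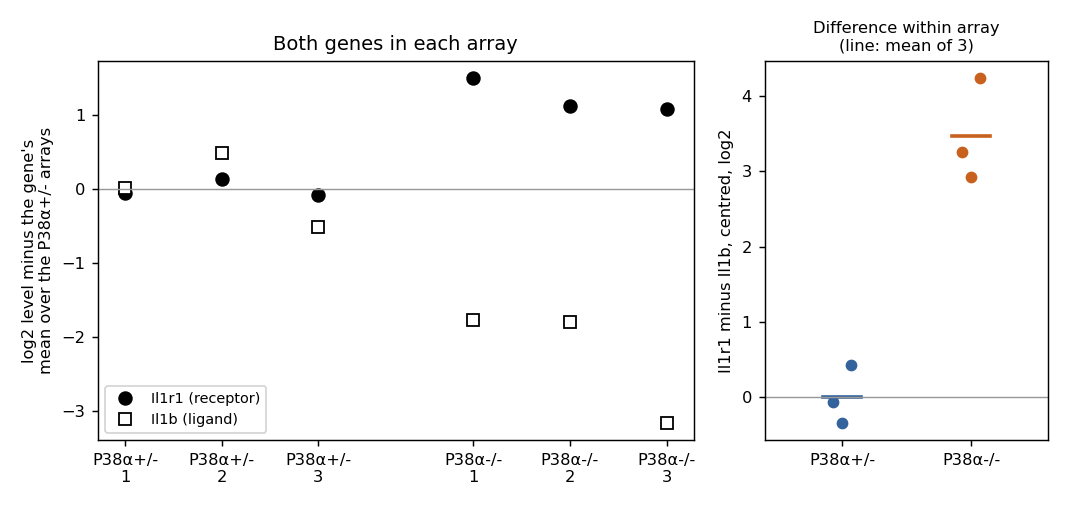
Left, log2 levels of Il1r1 (filled) and Il1b (open) in each of the 6 arrays (x axis), each minus its own mean over the P38α+/- arrays. Right, the difference of the 2 within each array, with the mean of 3 as a line. In the P38α-/- arrays Il1r1 lies at 1.08 to 1.497 and Il1b at -3.16 to -1.77.

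The genes between receptor and nucleus differed less. Myd88, the adaptor shared with most Toll-like receptors, was also printed at 10 places per array and read -2.45, -2.28 and -2.39 in P38α+/- and -2.74, -2.76 and -2.76 in P38α-/- erythroblasts. The groups did not overlap, but the change of -0.38 ± 0.14 (SE) lay near the median gene's -0.14 and turned to 0.11 when the percentile was taken over all probes, which moved the median gene to 0.34. Its sign thus depended on the scaling.

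Irak1, a kinase of the complex, was read by 3 probes on all 6 arrays. The brightest gave -0.96, -1.03 and -0.90 in P38α+/- and -1.04, -1.02 and -1.05 in P38α-/- arrays, and the changes of the 3 probes were -0.07, -0.21 and -0.22 with overlapping groups for each. Irak2, the related kinase, had 2 probes. One read 1.54, 1.07 and 0.80 against 1.53, 0.70 and 0.90, a change of -0.10 ± 0.29, and the other, 1209 bases upstream in the transcript, read -3.39, -4.50 and -3.90 against -3.47, -3.51 and -3.30, a change of 0.51 ± 0.29. The 2 probes differed in sign, and both overlapped between groups. With the percentile over all probes the changes of Irak1 and Irak2 became 0.41 and 0.38, near the shifted median gene.

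Irak4, the kinase that starts the relay, was not tested. Each of its 2 probes, 1 of which spans an intron, was well above background on 1 P38α+/- array and no P38α-/- array. Traf6, the ubiquitin ligase, was tested by the probe for the transcript AK009110, with -3.52, -2.81 and -3.30 in P38α+/- and -3.39, -4.29 and -3.56 in P38α-/- erythroblasts. The groups overlapped, and the change was -0.54 ± 0.30. Its probe for the reference transcript, well above background on 2 P38α+/- arrays and 1 P38α-/- array, gave -6.28, -6.01 and -5.61 against -7.25, -5.52 and -6.38. The remaining Traf6 probe was well above background on no array.

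Of the 10 genes, 6 were tested: Il1r1, Il1b, Myd88, Irak1, Irak2 and Traf6. Limma called 0 of them at an adjusted p of at most 0.05 and a fold of at least 2, where 0.191% of all tested genes were called, and the methods' t-test called 0. A gene counts as called if any of its tested probes passed. At an unadjusted p under 0.05, 3 passed with either test. With a fold of at least 2 besides, these were 1 higher (Il1r1, 1.41% of all genes) and 1 lower (Il1b, 9.37% of all genes). By their main probes 1 gene was above in every P38α-/- array (7.44% of all genes) and 2 were below in every one (19.7% of all genes). Since the same contrast chose the genes, nothing is read from these counts. The median change of the 6 was -0.24, and 3 lay above and 3 below the median gene.

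Il1r1 lies in a cluster of receptor genes on chromosome 1, between Il1r2, which codes for a decoy that binds IL-1 without signalling, and Il1rl2, Il1rl1, Il18r1 and Il18rap, which serve IL-36, IL-33 and IL-18. The probes of these genes run from chr1:40180014-40180073 for Il1r2 to chr1:40605729-40605788 for Il18rap in mm9. Among the 4 genes of the cluster that were tested, Il1r1 alone had a positive change, with each alternative run that tested them. Il1r2 read -4.65, -3.90 and -4.67 in P38α+/- and -6.08, -5.74 and -7.38 in P38α-/- erythroblasts, where 1 array detected it (change -1.997 ± 0.46, SE, limma adjusted p = 0.11). That p-value rests partly on undetected readings and is no support. Il18r1 read -5.19, -5.37 and -6.08 in P38α+/- arrays and had no P38α-/- array well above background, so that its P38α+/- mean was at least 1.91-fold higher. Its P38α-/- readings of -7.41, -7.32 and -8.08 lay below those arrays' lowest detected signals of -6.245, -6.67 and -6.53. The limma adjusted p of 0.069 rests on these readings and is no support. All 3 probes of Il1rl1, the IL-33 receptor of mast cells and basophils among others, had negative changes, of -1.06, -1.13 and -0.59, each with every P38α-/- array below every P38α+/- array. None of these neighbours passed the adjusted threshold in limma without a block. When same-numbered mice were treated as pairs (the replicate block), limma called Il18r1 (adjusted p = 0.048), and 62 of all 14158 genes against 27 without it. The Il18r1 call rests on the same undetected P38α-/- readings, so nothing is read from it.

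**Figure D3:**
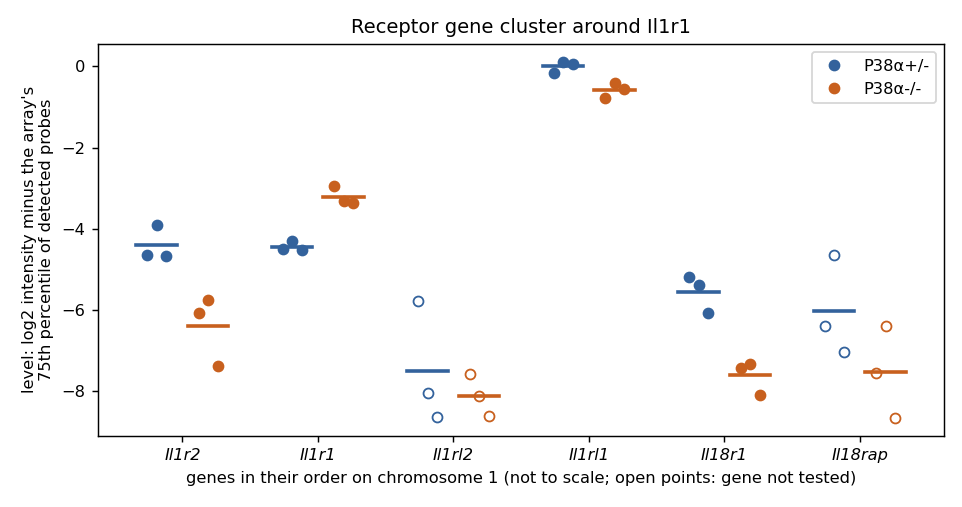
Levels (y axis, log2 intensity minus the array's 75th percentile of detected probes) of the receptor genes around Il1r1, in chromosomal order on the x axis and by the brightest probe, in 3 P38α+/- (blue) and 3 P38α-/- (orange) arrays, with lines at the means and open points for genes not tested. Il1r1 is the gene whose P38α-/- arrays lie above the P38α+/- arrays, while Il1r2, Il1rl1 and Il18r1 lie below.

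On chromosome 2, Il1rn lies beside Il1f8, Il1f9, Il1f6, Il1f5 and Il1f10, ligands or antagonists of the same family. Their probes were well above background on no array, apart from Il1f9 on 1 P38α+/- array. The other genes of the pathway were grouped into 5 lists, of which limma called 0 genes in each direction, as did the methods' t-test. Without P38α+/- replicate 3, limma called 311 of 15031 genes in all, and 0 with any other array left out. The 311 held 6 of the listed genes, namely Map2k6 higher and Ccl2, Ccl3, Gsdmd, Il18r1 and Tlr2 lower. No P38α-/- array had Ccl2, Ccl3 or Il18r1 well above background.

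Of the IL-1 family ligands and receptors outside the set, 12 were matched by symbol and 5 tested, with a median change of -0.59. At an unadjusted p under 0.05 and a fold of at least 2, which 9.37% of all genes passed as lower, 3 were lower. These were Il18r1, which no P38α-/- array detected, Il1r2, which 1 of 3 detected, and, by its dimmer probes only, Il1rl1. Beside Il18r1 and Il1r2, the lowest, the highest were Sigirr, an inhibitory receptor (0.44 ± 0.64, SE, limma adjusted p = 0.74), and Il18bp, the soluble inhibitor of IL-18 (0.14 ± 0.16, adjusted p = 0.66). Il33 and Il1rl2 were among 5 genes detected on no array.

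Signalling proteins of the receptor complex and below TRAF6 were mostly detected, with 21 of 25 tested and a median change of -0.11, close to that of all genes, which it followed under each scaling to within 0.03. At the unadjusted threshold 2 were higher (1.41% of all genes) and 0 lower. Map2k6, a kinase that phosphorylates P38, read -4.96, -4.71 and -7.37 in P38α+/- and -2.24, -2.39 and -2.59 in P38α-/- erythroblasts (3.28 ± 0.69, SE, limma adjusted p = 0.10). The scanner flagged it as detected in 2 of the 3 P38α+/- mice, replicate 3 lay below that array's lowest detected signal of -6.54, and without replicate 3 the change was 2.43 (adjusted p = 0.046). Ticam1, the adaptor of a branch of Toll-like receptor signalling that does not serve IL1R1, followed with 1.36 ± 0.31 (adjusted p = 0.11). The lowest were Irak3, an inhibitor of the IRAK relay (-1.08 ± 0.54, adjusted p = 0.31), which 1 of 3 P38α-/- arrays detected, and Peli1, a ubiquitin ligase of the complex (-0.58 ± 0.18, adjusted p = 0.17). The study picked kinases of the Map2k group from these arrays, so the array value of Map2k6 is no independent evidence of a direction. By q-PCR of sorted P38α-/- erythroblasts the study reports higher MKK6 (Map2k6) and MKK3 (Map2k3), but not MKK4 or MKK7.

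Of the genes for IL-1 processing and release, 15 of 19 were tested, with a median change of -1.29. At the unadjusted threshold 8 were lower (9.37% of all genes) and 0 higher (1.41% of all genes), and the 8 included Elane, Prtn3 and Ctsg, genes of neutrophil proteases. The 8 also held Panx1 and Capn2, each detected on 1 of 3 P38α-/- arrays and tested through the P38α+/- arrays alone. Their changes rest partly on undetected readings and are no support. The same holds for S100a10, which was outside the 8. With each scaling run, 9 of the 15 lay below the median gene. The lowest were Prtn3 (-2.05 ± 0.68, limma adjusted p = 0.18) and Ctsg (-2.03 ± 0.65, adjusted p = 0.17), whose proteins are stored in neutrophil granules. The highest were Pycard, the inflammasome adaptor (0.58 ± 0.44, adjusted p = 0.49), and Capn1, a calpain (0.55 ± 0.22, adjusted p = 0.23). Nlrp3 and Nlrc4, sensors of inflammasomes, were detected on no array.

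Toll-like receptors and their cofactors, which share MYD88 with IL1R1, were mostly dim. The 4 tested of 13 were Tlr2 (-1.40 ± 0.52, limma adjusted p = 0.20, detected on 2 of 3 P38α-/- arrays), Tlr13 (-1.004 ± 0.31, adjusted p = 0.16), Tlr9 (-0.09 ± 0.20, adjusted p = 0.85) and Tlr7 (0.56 ± 0.40, adjusted p = 0.47). At the unadjusted threshold 2 were lower (9.37% of all genes) and 0 higher.

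Genes known to respond to IL-1 were tested for 11 of 31, with a median change of -0.84, and 3 were lower (9.37% of all genes) and 0 higher at the unadjusted threshold. Tnf, itself an inflammatory cytokine, had no P38α-/- array well above background, and its P38α+/- mean was at least 2.29-fold higher (limma adjusted p = 0.13). That p-value rests on P38α-/- readings that were not detected and is no support. By q-PCR the study reports lower TNF-α in P38α-/- erythroblasts. Nfkbiz, an IκB family protein, had a change of -2.17 ± 0.50 (adjusted p = 0.11), with 1 of 3 P38α-/- arrays well above background. Its p-value rests partly on undetected readings and is no support either. The highest were Nfkbia, the inhibitor of NF-κB that IL-1 induces (0.43 ± 0.37, adjusted p = 0.54), and Sod2 (0.35 ± 0.19, adjusted p = 0.35). Il6, Ptgs2, Icam1 and Csf2 were among 11 genes of the list detected on no array.

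**Figure D4:**
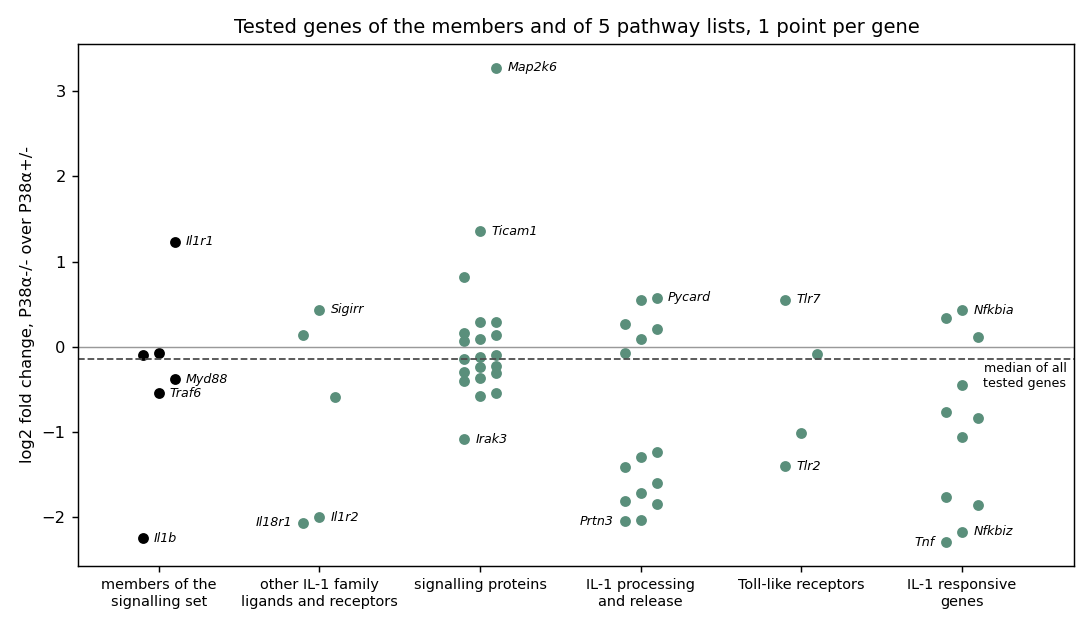
Change (log2, P38α-/- over P38α+/-, y axis) of each tested gene, 1 point per gene, for the 6 tested members (black) and 5 pathway lists (green), with the median of all tested genes (-0.14) dashed. Il1r1 at 1.23 and Il1b at -2.24 are the extremes of the members, the signalling proteins centre on the dashed line, and the processing list has 9 genes below -1.

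Tested marker genes of several other blood cells had mostly negative changes, as Il1b had, while those of megakaryocytes and platelets as a list did not. By mean level, the neutrophil list alone was lower in every P38α-/- array than in every P38α+/- array. The part of these markers in the difference of Il1b was not tested. In RNA of a sorted population, fewer cells of a type and less RNA per cell cannot be told apart. All 17 neutrophil markers were tested and all 17 had negative changes, with a median of -1.32, and 14 were below in every P38α-/- array (19.7% of all genes). Of these markers, Stfa1 was detected on 1 of 3 P38α-/- arrays and was tested through the P38α+/- arrays alone. All 17 also lay below the median gene with the 5 other scalings or background corrections run, although 1 sign turned with the percentile over all probes and with the E1A spike-ins. Their mean level was 1.01, 1.599 and 0.35 in P38α+/- and -0.24, -0.39 and -0.87 in P38α-/- arrays, and none was undetected. The summed level, which is the log2 of the sum of the genes' unlogged levels and so follows the brightest genes, ran from 6.98 to 8.24 in P38α+/- and from 6.18 to 6.61 in P38α-/- arrays. Il1b minus the mean of these markers in the same array changed by -0.76, with an SD of 0.12 among P38α+/- and 0.48 among P38α-/- arrays. Il1b minus the mean of the monocyte and macrophage markers changed by -1.27, with an SD of 0.48 among P38α+/- and 0.14 among P38α-/- arrays, and Il1b minus the mean of the erythroid markers by -2.23.

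Of the monocyte and macrophage markers 10 of 15 were tested, all 10 below the median gene (8 with quantile normalization and in the authors' table, 9 with the normexp background). Among them, Adgre1, Cx3cr1 and Clec4n were each detected on 1 of 3 P38α-/- arrays, and C1qa and C1qc on 2 of 3. All of these were tested through the P38α+/- arrays alone. The summed level was 0.56 to 1.69 in P38α+/- and -0.14 to 0.43 in P38α-/- arrays. Mean levels overlapped, at -5.44 to -4.03 against -6.38 to -5.05, with P38α+/- replicate 3 the lowest of its group. Mrc1, Cd163 and Siglec1 were detected on no array. All 4 tested mast cell and basophil markers and all 5 tested B cell markers lay below the median gene with each scaling, and of 5 tested T and NK cell markers 4 did so (3 to 5 with other scalings). Mcpt8, Ms4a1 and Ebf1 were detected on no P38α-/- array, and Gzma on 2 of 3, so these were tested through the P38α+/- arrays alone. Such a choice favours a negative change, so nothing is read from theirs. Median changes of the mast cell and basophil, B cell, and T and NK cell lists were -1.99, -2.64 and -0.32. Summed levels of these lists in P38α+/- against P38α-/- arrays were -1.17 to 1.04 against -2.12 to -1.55, -2.0 to 1.10 against -2.42 to -1.36, and 0.31 to 1.68 against 0.01 to 0.24. Mean levels overlapped for each, again with P38α+/- replicate 3 the lowest of its group. They were -6.40 to -4.30 against -6.95 to -6.30, -6.09 to -3.31 against -7.06 to -5.93, and -4.98 to -3.47 against -5.39 to -4.72. Ms4a2, Mcpt4 and Cd8a were detected on no array.

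Of the 8 marker lists 0 were above in every P38α-/- array, as Il1r1 was. The stromal and endothelial markers, for cells known to carry the receptor, had 5 of 14 genes tested, 1 positive and 4 negative. The positive one was Vwf (0.52), which is also in the megakaryocyte and platelet list. The others were Cxcl12 (-0.93), Pecam1 (-0.84), Lepr (-0.54) and Kdr (-0.17). Summed levels, to which the bright Kdr and Vwf gave most, were 0.52 to 1.16 in P38α+/- and 0.51 to 1.18 in P38α-/- arrays. Pdgfra, Pdgfrb, Col1a1, Kitl, Cdh5 and Emcn were detected on no array. Megakaryocyte and platelet markers had 4 positive and 2 negative changes and summed levels of 1.13 to 1.64 against 1.38 to 1.82. The 15 erythroid markers had a median change of -0.06, and their summed level was 10.3 to 10.9 in P38α+/- and 10.2 to 11.0 in P38α-/- arrays. Il1r1 minus the erythroid mean changed by 1.25, with an SD of 0.26 among P38α+/- and 0.06 among P38α-/- arrays. Elane, Lcn2, Mmp9 and Vcam1 are each in a pathway list and a marker list.

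**Figure D5:**
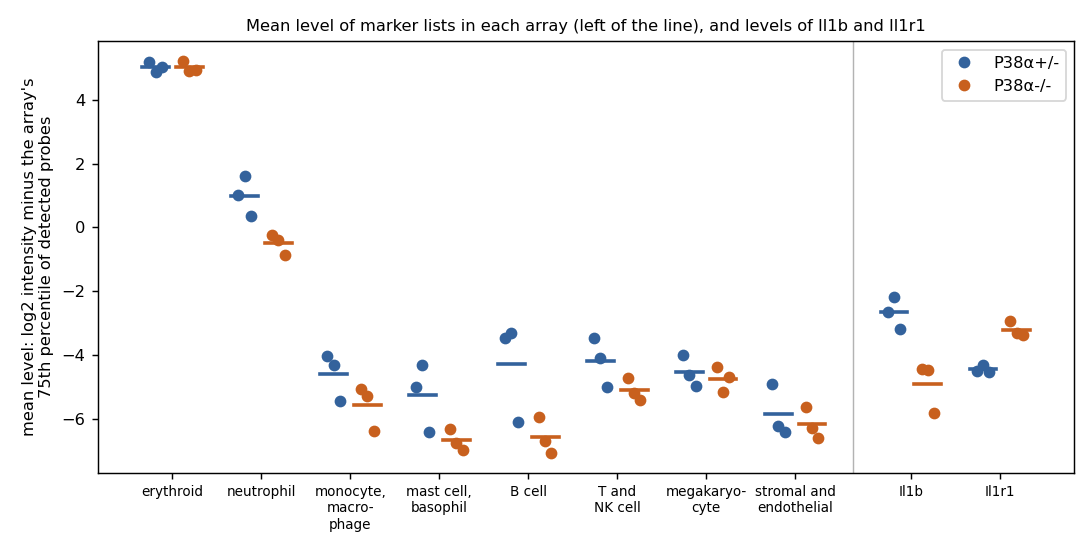
Mean level (log2, y axis) of 8 marker lists in each array, and on the right the levels of Il1b and Il1r1, for 3 P38α+/- (blue) and 3 P38α-/- (orange) arrays with lines at the means. Erythroid markers coincide, the neutrophil list and Il1b are lower in all 3 P38α-/- arrays, and Il1r1 is higher in all 3.

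The genes with profiles nearest to each end of the contrast were taken over the 6 arrays, as the smallest root mean square (RMS) difference after centring each gene. Nearest to Il1r1 were Cbfa2t3 (RMS 0.13), a transcriptional corepressor of erythroid and megakaryocytic cells, Sfxn3 (0.14), Frmd8 (0.16), Jmjd8 (0.16) and Leng9 (0.16), with changes of 1.31, 1.09, 1.05, 1.00 and 1.11. Nearest to Il1b were Stfa2l1 (0.13), a stefin of the neutrophil list, a lincRNA of chromosome 1 (0.19), Prodh (0.20), Plcb3 (0.20) and a neighbouring lincRNA (0.22), with changes of -2.16, -1.87, -2.07, -2.22 and -2.28. Likeness over 6 arrays in 2 groups is a description and mainly repeats the size of the change.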

How the data were processed

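The authors sorted CD71highTer119+ BM erythroblasts on day 4 after PHZ and hybridised Cy3-labelled RNA of 3 P38α+/- and 3 P38α-/- mice to 1 array each. The intensity of each spot was deposited by the authors as Agilent Feature Extraction 10.7.3.1 wrote it, background subtracted within the array and not normalized between arrays, with probe positions in mm9. A second deposited table, of linear intensities, was quantile normalized as judged from its values and served as an alternative. Arrays were assigned to genotypes from their labels, and 0 columns were left unassigned. Array data hold no read depth, and the number of arrays limits the precision.

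Control and outlier spots were left out, log2 intensities were averaged over the spots of a probe, and the 75th percentile of the 15540 probes that every array detected was subtracted array by array. Members were matched by the gene name in the array files. Of 55681 probes, 27509 were named for the lists by accession, 3549 by symbol and 404 by synonym in RefSeq's table, and the others kept the name of the files. A gene is represented by its brightest tested probe or, failing that, its brightest probe. Limma 3.58.1 in R 4.3.3 (lmFit and eBayes) gave two-sided comparisons of the genotypes without a block, as in the study's methods, and p-values over all 18785 tested probes were adjusted by Benjamini-Hochberg. The methods' t-test was an unpaired equal-variance test on the same values, with the fold taken between medians. The code was tested on simulated data. The members and lists were chosen with earlier results of these data known.

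Replicate numbers were checked for pairing, since the study describes its mice as pairs. For same-numbered arrays the correlation of deviations from group means was 0.54, 0.31 and 0.42, and for others it was 0.18 or less. The numbers were therefore taken as pairs in the replicate block. Such a correlation cannot tell paired mice from arrays handled together. The replicate 1 arrays also had the lowest 75th percentiles, 9.66 and 9.54 against 10.35 to 10.62. Every member is named by every probe. For each list every called gene was to be named, with its 2 highest and 2 lowest tested genes, and for Il1r1 and Il1b the 5 nearest profiles. Genes named beyond this rule, among them those called without 1 array and those detected on no array, were chosen after their values were seen. Alternatives were other scalings, background corrections and filters, the authors' table, the replicate block, the slide as a block, array weights and leaving out each array.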

Additional observations from a re-analysis of the deposited data

How the results depend on the processing

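The change of Il1r1 was positive and that of Il1b negative under each of the 17 alternatives run. Il1r1 moved from 1.23 to 1.71 with the percentile over all probes, 1.82 with quantile normalization, 1.58 with centring on the E1A spike-in spots, 1.73 in the authors' table and 0.69 with normexp, an offset of 50 that compresses dim signals. Under normexp Il1b fell by 1.22 and the change of Il1r1 minus Il1b was 1.91. Leaving out each array gave 1.10 to 1.31 for Il1r1, -2.50 to -1.78 for Il1b and 3.09 to 3.75 for their difference. The median gene moved from -0.14 to 0.34 with the percentile over all probes, 0.21 with E1A, 0.05 with quantile normalization and 0.06 in the authors' table. Members called numbered 2 (Il1r1 and Il1b) with the percentile over all probes and with array weights, 1 (Il1r1) when all 6 arrays had to detect a probe, and 0 otherwise, also with each array left out. Over all genes, 27 were called without these changes, 730 of 14158 with the percentile over all probes, 474 with array weights, 64 of 12015 when all 6 arrays had to detect a probe, and 0 with an array left out, other than 311 of 15031 without P38α+/- replicate 3. Listed genes called numbered 11 with the percentile over all probes, 6 with array weights and 0 to 6 with an array left out, the 6 without P38α+/- replicate 3. With the replicate block, which takes same-numbered mice as pairs, limma called 62 genes, among them 1 listed gene (Il18r1, adjusted p = 0.048) and 0 members. The changes are those without the block. No P38α-/- array detected Il18r1, so nothing is read from its call. The slide as a block equals leaving out P38α-/- replicate 3. Il1a ranged from -2.05 to 0.066 with an array left out, changing sign without P38α+/- replicate 1. Il1rn, Il1a, Il1rap and Irak4 were at the detection limit, where signal over background limits any value. The causes were not tested.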
